A study of Mus musculus with 6 samples.

Results

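The 35 genes described here are markers of endothelial cells, the cells that line blood vessels, measured in GFP+ cardiomyocytes (CMs) sorted from young mouse hearts with and without overexpression of serum response factor (SRF-OE). They were taken by gene symbol from a list of vascular receptors, junction proteins, transcription factors, enzymes and surface antigens, and all 35 were among the 23337 genes of the count table. All 35 also passed edgeR's filter on low counts, which kept 13754 genes. Wildtype mice were injected at P1 with 5e8 vg/g of an AAV9 virus that carried SRF joined to GFP by a 2A peptide (SRF-OE) or GFP alone (GFP), each under the cTNT promoter of cardiac troponin T, and RNA of FACS-sorted GFP+ cells was sequenced at P14. Every library thus comes from hearts that carried an AAV with GFP, and the groups differ in SRF. The cTNT promoter drives its transgene in CMs, and the sort gated on GFP, not on an endothelial antigen.

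Endothelial cells form the wall of each vessel and the whole wall of the capillaries, which in the heart run alongside nearly every CM. Vascular endothelial growth factor (VEGF) and angiopoietins reach them through receptor tyrosine kinases, cadherin and claudin junctions seal them to one another, and ETS and SOX transcription factors maintain their gene program. CMs are not known for expressing most of these genes, which is why the same genes are used to follow vascular cells in heart samples.

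The labels list 3 SRF-OE and 3 GFP libraries, but the column under the name of SRF-OE replicate 1 lists lengths of genes, so 5 libraries with total counts from 14137433 to 23159631 could be used. Levels are CPM, read counts scaled to library size with edgeR's TMM factors, and are given for SRF-OE replicates 2 and 3 and then for GFP replicates 1, 2 and 3. Srf, the overexpressed gene, was at 360 and 748 CPM in SRF-OE and at 338, 67.3 and 85.1 CPM in GFP. The library labelled GFP1 therefore held Srf at a level that goes against its label, and the comparisons of the groups are given with and without it. Since lengths stand under a library's name, and gene symbols under the header Chr, the names may be displaced against the columns of values. With names displaced by 1 column, the columns with Srf at 360, 748 and 338 CPM would all be SRF-OE. Those with Srf at 67.3 and 85.1 CPM would be GFP. Whether the names are displaced was not tested, and every group value given here rests on the names as they stand in the table. CM genes were abundant in all 5 libraries, with 12 markers summing to between 97974 and 165524 CPM. Xist, which is expressed in female cells, was at 147 CPM in replicate 2 of SRF-OE, at 88.8 CPM in replicate 2 of GFP and at 0.380 to 0.743 CPM in the others.

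RNA of the endothelial genes was present in every library, and its amount differed between libraries of one group by more than between the groups. The 35 genes summed to 2208 and 1076 CPM in SRF-OE and to 1887, 935 and 866 CPM in GFP. SRF-OE replicate 2 and the library labelled GFP1 were high, and the other 3 libraries were low, so that the groups as labelled overlapped. As a share of all counted reads, the genes took 0.240% and 0.116% in SRF-OE and 0.191%, 0.0880% and 0.0776% in GFP. For 31 of the 35 genes, both SRF-OE replicate 2 and the library labelled GFP1 lay above the other 3 libraries, a pattern that 10.6% of all genes tested had. In 29 of the 35, SRF-OE replicate 2 was the highest and the library labelled GFP1 the second, against 7.46% of all genes tested. SRF-OE replicate 2 and the library labelled GFP1 carry different group labels. Srf was at 360 and 338 CPM in them, between the levels of SRF-OE replicate 3 and of GFP replicates 2 and 3. Xist was at 147 and 0.380 CPM in them. Whether the group, the Srf level or the Xist level bears on the pattern was not tested. In such bulk samples, more endothelial cells and more RNA per cell cannot be told apart.

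**Figure D1:**
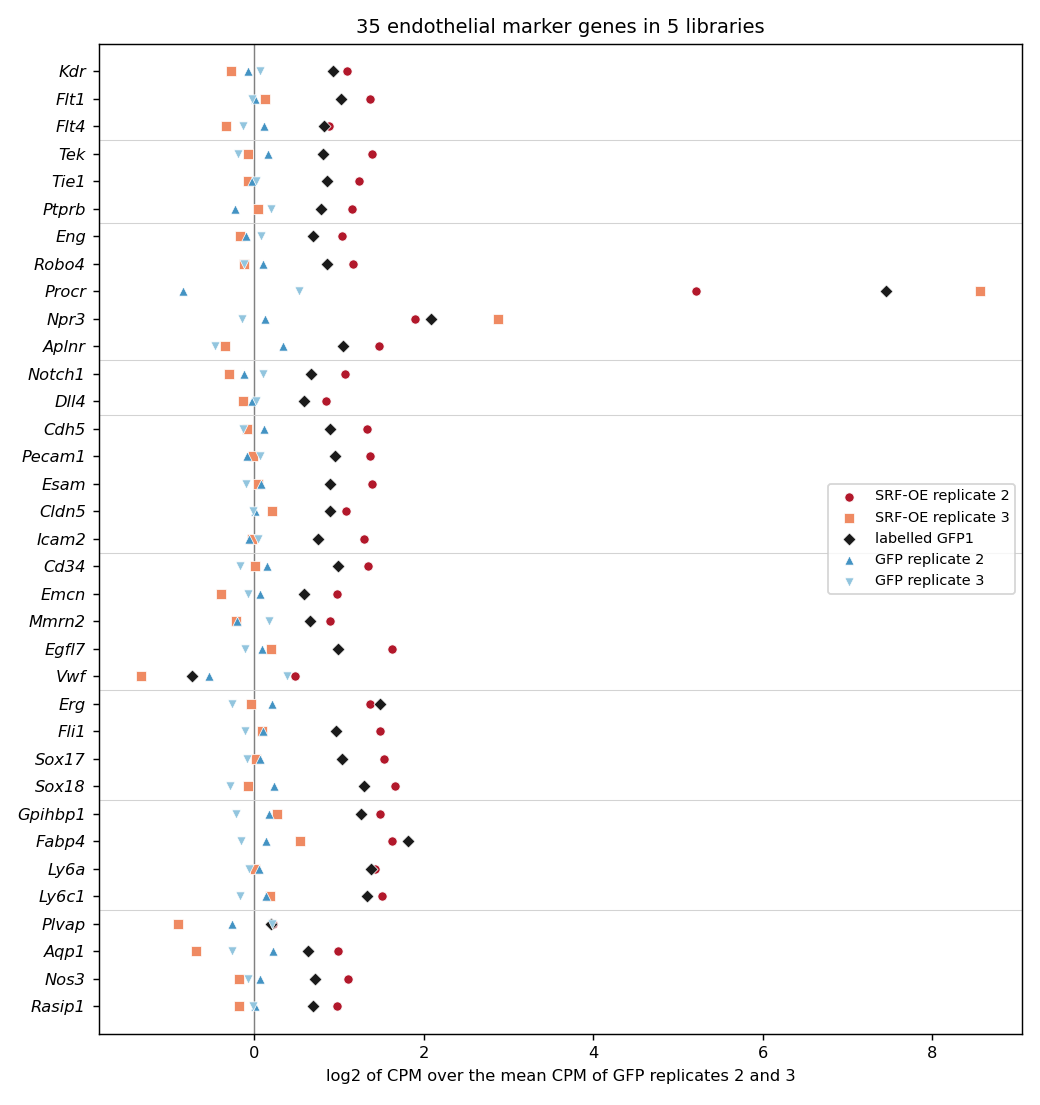
Level of each of the 35 endothelial genes in each of the 5 libraries, as log2 of CPM over the mean CPM of GFP replicates 2 and 3. Each point is 1 library, grey lines part the genes by role, and most rows have SRF-OE replicate 2 and the library labelled GFP1 on the right, while Procr, Npr3, Vwf and Plvap have another order.

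The receptors of VEGF followed this pattern. Kdr (chr5:75932827-75978458 of GRCm38), the main signalling receptor of VEGF-A, was at 181 and 70.1 CPM in SRF-OE and at 162, 80.7 and 89.0 CPM in GFP. Flt1, a receptor that binds VEGF-A tightly and limits its signalling, was at 30.5 and 12.9 CPM in SRF-OE and at 24.0, 12.0 and 11.7 CPM in GFP. Flt4, the receptor of VEGF-C, was at 13.0 and 5.64 CPM in SRF-OE and at 12.5, 7.66 and 6.47 CPM in GFP. All 3 receptors were between 2.30 and 2.58 times as high in SRF-OE replicate 2 as in replicate 3. Per length of transcript, Kdr was the most abundant of them, with a mean over the libraries of 21.4 RPKM (CPM per kb of the deposited gene length), against 2.90 RPKM for Flt1 and 1.55 RPKM for Flt4.

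The Tie receptors bind or modulate the angiopoietin signal that keeps vessels quiescent. Tek, also called Tie2, was at 69.7 and 25.3 CPM in SRF-OE and at 46.7, 29.7 and 23.3 CPM in GFP. Tie1 (chr4:118471191-118490061), its orphan partner, was at 107 and 42.9 CPM in SRF-OE and at 82.2, 44.4 and 46.0 CPM in GFP. Ptprb, the phosphatase VE-PTP that acts on Tek, was at 64.1 and 29.6 CPM in SRF-OE and at 49.6, 24.5 and 32.9 CPM in GFP. Each of the 3 genes was again highest in SRF-OE replicate 2 and second in the library labelled GFP1.

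Of the other surface receptors, Eng, Robo4 and Aplnr had the same order at the top. Eng, a co-receptor of the BMP and TGF-beta family, was at 83.2 and 35.9 CPM in SRF-OE and at 65.2, 37.9 and 42.9 CPM in GFP. Robo4, a receptor that stabilizes vessels, was at 41.5 and 17.0 CPM in SRF-OE and at 33.6, 19.9 and 17.1 CPM in GFP. Aplnr, the receptor of apelin, was at 174 and 49.3 CPM in SRF-OE and at 129, 79.2 and 45.5 CPM in GFP. Aplnr differed 3.52-fold between the SRF-OE libraries and 1.74-fold between GFP replicates 2 and 3, so its spread was wide within both groups. Procr and Npr3, the remaining members with this role, are described further on.

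Notch1 and its ligand Dll4 carry the signal that divides sprouting tip cells from the stalk behind them. Notch1 was at 33.1 and 12.9 CPM in SRF-OE and at 24.9, 14.5 and 17.0 CPM in GFP. Dll4 was at 20.2 and 10.3 CPM in SRF-OE and at 16.9, 11.1 and 11.4 CPM in GFP. In SRF-OE, replicate 2 exceeded replicate 3, by 2.58-fold for Notch1 and 1.96-fold for Dll4.

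The genes of cell junctions and adhesion all had the shared order at the top. Cdh5 (chr8:104101625-104144511), or VE-cadherin, the adhesion molecule of endothelial adherens junctions, was at 77.7 and 29.0 CPM in SRF-OE and at 57.4, 33.3 and 28.2 CPM in GFP. Pecam1 (chr11:106654217-106750628), or CD31, was at 121 and 46.4 CPM in SRF-OE and at 90.6, 44.4 and 49.3 CPM in GFP. With 95% binomial intervals that cover counting error only, Pecam1 lay between 116 and 126 CPM in SRF-OE replicate 2 and between 43.6 and 49.3 CPM in SRF-OE replicate 3. The difference between these libraries is thus far wider than counting error. Esam, a tight junction molecule of the immunoglobulin family, was at 94.0 and 37.2 CPM in SRF-OE and at 66.6, 38.1 and 33.7 CPM in GFP. Cldn5, the main claudin of endothelial tight junctions, was at 37.5 and 20.4 CPM in SRF-OE and at 33.0, 17.8 and 17.4 CPM in GFP. Icam2, an adhesion molecule that leukocytes bind, was at 36.3 and 14.6 CPM in SRF-OE and at 24.9, 14.2 and 15.3 CPM in GFP. Cldn5 had the smallest difference between the SRF-OE libraries among the 33 genes that were higher in SRF-OE replicate 2, at 1.84-fold.

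The surface sialomucins and matrix proteins held one exception, Vwf. Cd34, a sialomucin of capillaries, was at 138 and 54.8 CPM in SRF-OE and at 107, 60.1 and 48.3 CPM in GFP. Emcn, or endomucin, was at 25.2 and 9.79 CPM in SRF-OE and at 19.3, 13.4 and 12.2 CPM in GFP. Mmrn2, a matrix protein of vessels, was at 34.9 and 16.1 CPM in SRF-OE and at 29.6, 16.3 and 21.2 CPM in GFP. All 3 had the shared order at the top. Egfl7, a secreted protein whose gene hosts an endothelial microRNA, was at 74.5 and 27.7 CPM in SRF-OE and at 48.2, 25.8 and 22.5 CPM in GFP. Vwf, the clotting factor carrier typical of veins, arteries and endocardium more than of capillaries, was at 32.1 and 9.09 CPM in SRF-OE and at 13.9, 15.9 and 30.1 CPM in GFP. Vwf was nearly as high in GFP replicate 3 as in SRF-OE replicate 2 and was lower in the library labelled GFP1 than in the other GFP libraries.

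The 4 transcription factors of the list also had the 2 high libraries in common. Erg, an ETS factor that maintains endothelial identity, was at 4.39 and 1.66 CPM in SRF-OE and at 4.75, 1.97 and 1.42 CPM in GFP. Fli1, a related ETS factor, was at 25.9 and 9.92 CPM in SRF-OE and at 18.1, 9.95 and 8.60 CPM in GFP. Sox17, a SOX factor of arteries, was at 11.3 and 3.98 CPM in SRF-OE and at 8.08, 4.13 and 3.71 CPM in GFP. Sox18, another SOX factor of vessels, was at 37.0 and 11.1 CPM in SRF-OE and at 28.7, 13.7 and 9.55 CPM in GFP. Their median log2 difference between the SRF-OE libraries was 1.45, beside 1.32 over all 35 genes and 0.00041 over all genes tested. Erg rested on 18 to 100 reads per library and, at a mean of 1.28 RPKM, was the lowest of the 35 genes per length.

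Genes of lipid handling and of the Ly6 family are typical of capillary endothelium. Fabp4, a fatty acid binding protein of capillary endothelium and fat cells, was at 257 and 121 CPM in SRF-OE and at 292, 91.5 and 74.9 CPM in GFP. Fabp4 had the highest mean level per length, 261 RPKM, and was highest in the library labelled GFP1. Gpihbp1, which holds lipoprotein lipase at the capillary wall, was at 56.4 and 24.2 CPM in SRF-OE and at 48.3, 22.8 and 17.4 CPM in GFP. Ly6a, or Sca-1, was at 32.3 and 12.1 CPM in SRF-OE and at 31.1, 12.4 and 11.5 CPM in GFP. Ly6c1 was at 67.5 and 27.1 CPM in SRF-OE and at 60.0, 26.3 and 21.2 CPM in GFP. The Ly6 and Fabp families have close relatives, so reads of near-identical copies make these levels uncertain.

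The last 4 genes build or regulate the vessel wall. Plvap, which forms the diaphragms of fenestrae and caveolae, was at 6.65 and 3.06 CPM in SRF-OE and at 6.56, 4.77 and 6.63 CPM in GFP, and did not set the library labelled GFP1 apart from GFP replicate 3. Aqp1, a water channel, was at 85.7 and 26.8 CPM in SRF-OE and at 67.3, 50.3 and 36.0 CPM in GFP. Nos3, the endothelial nitric oxide synthase, was at 43.8 and 18.0 CPM in SRF-OE and at 33.5, 21.3 and 19.3 CPM in GFP. Rasip1, a Ras and Rap interactor needed for vessel lumens, was at 60.5 and 27.1 CPM in SRF-OE and at 49.9, 31.0 and 30.5 CPM in GFP. All 4 were lowest in SRF-OE replicate 3, as were 14 of the 35 genes.

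In SRF-OE replicate 2, 33 of the 35 genes were higher than in replicate 3, against 50% of all genes tested. The median log2 difference over the 35 was 1.32. The others, Procr and Npr3, were set apart after their values were seen, because they went the other way. Among the 33 the log2 difference ran from 0.88 to 1.82, with a median of 1.33. Of the 35 genes, 31 were more than 2-fold higher in SRF-OE replicate 2, against 8% of all genes tested. The library labelled GFP1 exceeded GFP replicate 2 by more than 2-fold for 12 of the 35, against 8.8% of all genes tested, and exceeded GFP replicate 3 by as much for 16, against 9.16%. The log2 difference between the library labelled GFP1 and GFP replicate 2 ran from -0.19 for Vwf to 1.68 for Fabp4 among the 33 genes. Between GFP replicates 2 and 3, in contrast, 0 of the 35 were more than 2-fold higher in replicate 2, against 2.31% of all genes tested, and 1 was more than 2-fold higher in replicate 3, against 3.66%. That gene was Procr, at so few reads that the intervals of the libraries overlapped. These are differences between single libraries, with no replicates behind each side and no test. Markers of some other cell types moved with them. Fibroblast markers summed to 969 and 480 CPM in SRF-OE and to 528, 456 and 397 CPM in GFP, and for 11 of 12 SRF-OE replicate 2 exceeded replicate 3. Leukocyte markers summed to 54.7 and 24.0 CPM in SRF-OE and to 41.2, 21.8 and 17.1 CPM in GFP, again with 11 of 12 higher in SRF-OE replicate 2, although Ptprc, the pan-leukocyte antigen CD45, was only at 1.05 to 1.74 CPM. Epicardial markers summed to 23.6 CPM in SRF-OE replicate 2 and to between 5.50 and 6.73 CPM in the other 4 libraries. Erythroid and platelet markers summed to 3.44 to 13.4 CPM. Among them, Hba-a1 and Hba-a2, which encode the alpha chain of haemoglobin, are listed at 0 in all 5 libraries, but as near-identical copies their reads may not have been counted. The part that other cell types had in the endothelial levels was not tested.

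**Figure D2:**
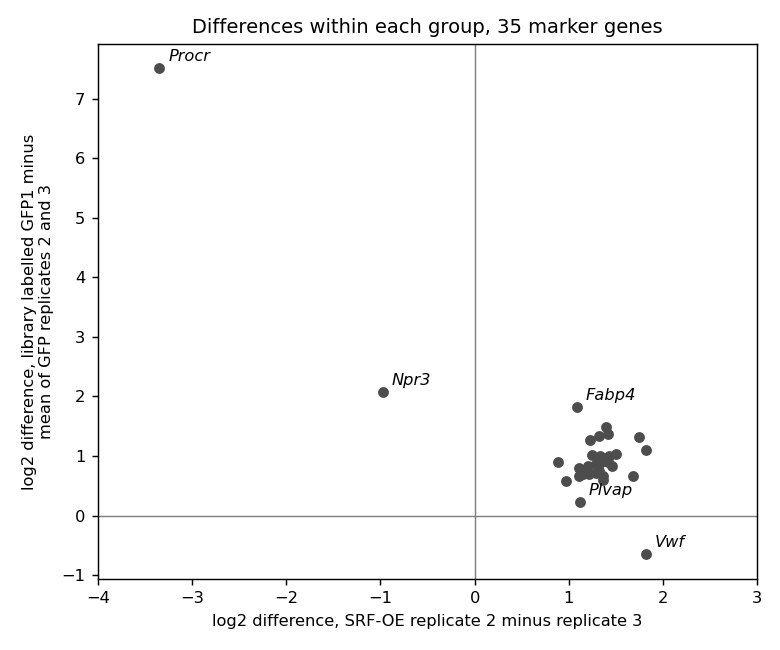
Log2 difference between the SRF-OE libraries (horizontal) against the log2 difference between the library labelled GFP1 and the mean of GFP replicates 2 and 3 (vertical), 1 point for each of the 35 endothelial genes. The 33 genes on the right lie between 0.88 and 1.82 on the horizontal axis, and Procr and Npr3 stand alone at the upper left.

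**Figure D3:**
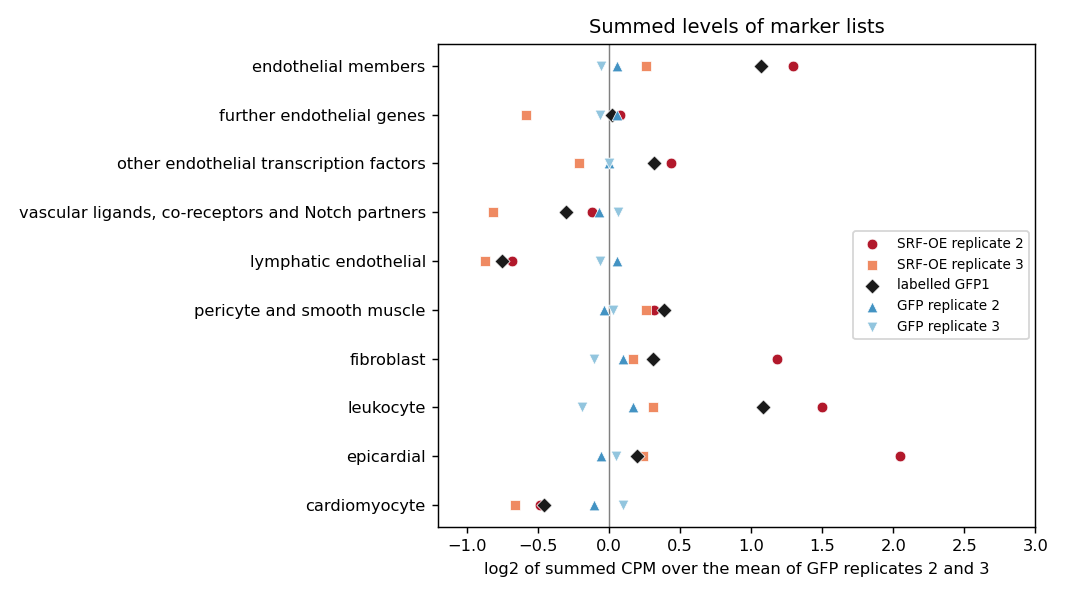
Summed CPM of the 35 endothelial genes and of lists of other genes in each library, as log2 over the mean of GFP replicates 2 and 3, 1 point per library. The endothelial genes, the fibroblast markers and the leukocyte markers have SRF-OE replicate 2 on the right, and the CM markers have all of SRF-OE replicates 2 and 3 and the library labelled GFP1 on the left.

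Of the 4 genes outside the shared order, Vwf and Plvap were still highest in SRF-OE replicate 2, while Procr and Npr3 were higher in SRF-OE replicate 3. Procr (chr2:155751117-155755471), the endothelial protein C receptor, was at 18.3 and 187 CPM in SRF-OE and at 86.1, 0.275 and 0.710 CPM in GFP. It was thus at few reads, 6 and 9, in GFP replicates 2 and 3. SRF-OE replicates 2 and 3 had 317 and 4278 reads of it, and the library labelled GFP1 had 1812. The 95% binomial interval was 2.20 to 13.1 reads in GFP replicate 2 and 4.12 to 17.1 reads in GFP replicate 3. Procr had a log2 difference of -3.35 between SRF-OE replicates 2 and 3, while the other surface receptors Eng, Robo4 and Aplnr were higher in replicate 2. Npr3 (chr15:11839896-11907287), the clearance receptor of natriuretic peptides, was at 13.4 and 26.3 CPM in SRF-OE and at 15.1, 3.90 and 3.24 CPM in GFP. The library labelled GFP1 was between the SRF-OE libraries for both genes, and GFP replicates 2 and 3 were the lowest. For Npr3, the binomial intervals of the library labelled GFP1 (13.5 to 16.9 CPM) and of SRF-OE replicate 2 (11.7 to 15.2 CPM) overlapped. For both genes, SRF-OE replicate 3 was the highest, the library labelled GFP1 the second and SRF-OE replicate 2 the third, an order that 7.99% of all genes tested had. Srf also was highest in SRF-OE replicate 3 and lowest in GFP replicates 2 and 3, with SRF-OE replicate 2 just above the library labelled GFP1. Those 2 libraries had Srf at 360 and 338 CPM, and Procr at 18.3 and 86.1 CPM. Whether Procr or Npr3 follows the Srf level was not tested.

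**Figure D4:**
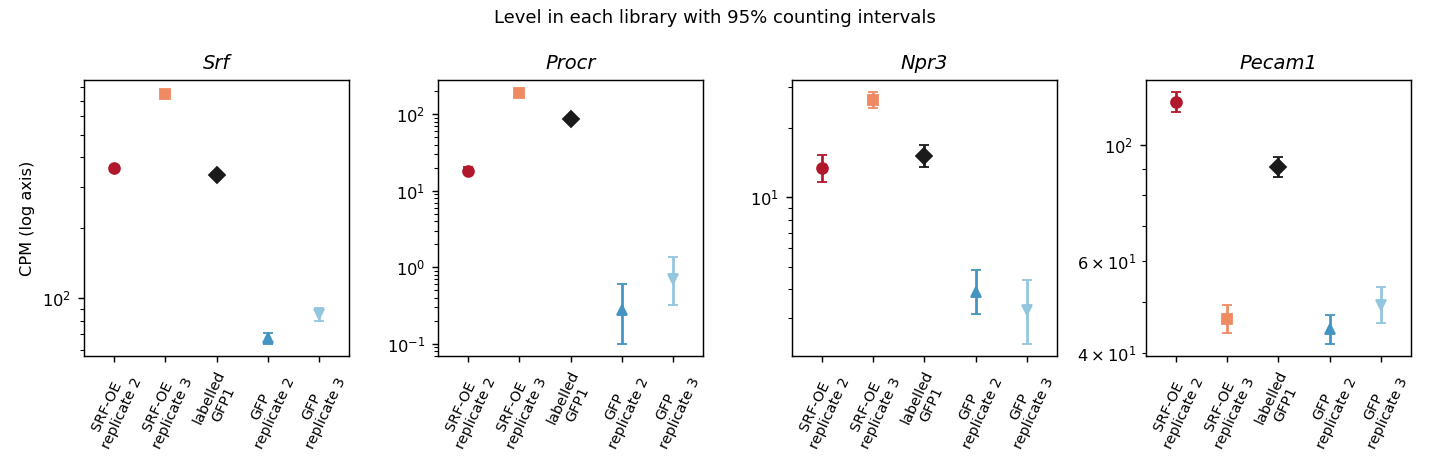
CPM of Srf, Procr, Npr3 and Pecam1 in each of the 5 libraries on log axes, with 95% binomial intervals of the read counts as bars. Procr and Npr3 are lowest in GFP replicates 2 and 3 and highest in SRF-OE replicate 3, as Srf is, whereas Pecam1 is highest in SRF-OE replicate 2. A relation to the Srf level was not tested.

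Promoter sequences are described because 31 of the genes shared the high libraries. RefSeq promoter windows of 300 bases on GRCm38.p6 were given for 19 of the 35 genes, in 24 windows. The letters AGGAAG, a form of the core that ETS factors such as Erg and Fli1 bind, were found on either strand in 12 of the 24 windows (50%) and in 35.4% of the 32851 windows of all genes. The CArG box, the motif that SRF binds, was found in 0 of the 24 windows and in 1.63% of all windows. AGGAAG and the CArG box can share letters, but with 0 CArG boxes none did in these windows. Kdr, Flt4, Tek, Cldn5, Dll4 and Notch1, which had the shared order at the top, held 0 AGGAAG matches in their windows, as did Procr and Npr3. Vwf and Plvap, the other genes outside the shared order, had no window. Whether the motif goes with the pattern was not tested. Tie1 and Robo4 are shown as genes with a match and Procr as one without. Each is shown as the 250 bases before the RefSeq start site, read 5′ to 3′ along the gene's strand. In the GENCODE positions these genes start inside the stretches shown, at 118490061 for Tie1, 37401897 for Robo4 and 155751117 for Procr. Part of each stretch thus lies within the GENCODE gene. Capitals mark AGGAAG or, where the motif lies on the other strand, its reverse complement.
Tie1, chr4:118489850-118490099, minus strand: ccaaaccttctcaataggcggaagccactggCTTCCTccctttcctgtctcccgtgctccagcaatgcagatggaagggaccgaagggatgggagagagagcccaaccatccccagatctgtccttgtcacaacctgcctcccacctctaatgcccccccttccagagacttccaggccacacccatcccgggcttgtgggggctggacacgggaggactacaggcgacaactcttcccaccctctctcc
Robo4, chr9:37401722-37401971, plus strand: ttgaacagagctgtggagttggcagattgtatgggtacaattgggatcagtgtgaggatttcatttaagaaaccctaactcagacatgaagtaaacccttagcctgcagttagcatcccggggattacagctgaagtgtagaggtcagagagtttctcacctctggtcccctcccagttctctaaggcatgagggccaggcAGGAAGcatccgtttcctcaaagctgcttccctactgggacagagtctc
Procr, chr2:155750967-155751216, plus strand: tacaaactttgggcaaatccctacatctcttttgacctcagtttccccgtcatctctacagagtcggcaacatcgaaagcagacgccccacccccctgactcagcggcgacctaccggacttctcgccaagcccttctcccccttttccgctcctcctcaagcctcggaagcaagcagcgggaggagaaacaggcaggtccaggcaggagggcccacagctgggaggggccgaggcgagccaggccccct
Tie1 and Robo4 each have 1 match in these bases and Procr has 0. A match describes only these letters in this window. The window of Tie1 has 1 more match in the 50 bases after the RefSeq start that are left out above.

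The design asks whether endothelial genes differed between SRF-OE and GFP. With the 5 libraries as labelled, 0 of the 35 genes passed an adjusted p of 0.05 in edgeR's quasi-likelihood test with Benjamini-Hochberg adjustment, as did 0% of the 13754 genes tested. At an unadjusted p under 0.05, 0 of the 35 were higher, against 6.35% of all genes tested, and 0 were lower, against 7.59%. DESeq2 gave an unadjusted p to 34 of the 35 genes, of which 0 were higher at a p under 0.05, against 4.2% of all genes given a p, and 0 were lower, against 5.76%. In 0 of the 35 did both SRF-OE libraries lie above all 3 GFP libraries, against 16.1% of all genes tested, and in 0 did both lie below, against 17.3%. The fitted log2 fold change was positive for 34 of the 35, against 53.3% of all genes tested, with a median of 0.38 beside 0.03 over all genes tested. This median rested on SRF-OE replicate 2. Without that library it was -0.43, and 2 of the 35, Procr and Npr3, had a positive value, against 48.4% of all genes tested. An exact permutation test of 2 libraries against 3 cannot give a two-sided p under 0.1.

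Among the genes of the main roles, the log2 fold change of Kdr was 0.18 (SE 0.45, adjusted p = 0.86 by edgeR) and that of Flt1 was 0.44 (SE 0.45, adjusted p = 0.65). Tek was at 0.51 (SE 0.46, adjusted p = 0.60) and Tie1 at 0.38 (SE 0.43, adjusted p = 0.69). Cdh5 was at 0.43 (SE 0.46, adjusted p = 0.67), and its mean in SRF-OE was 53.4 ± 34.4 CPM (SD, n = 2) against 39.6 ± 15.6 CPM (SD, n = 3) for the GFP libraries. Pecam1 was at 0.44 (SE 0.46, adjusted p = 0.66 by edgeR), and its mean in SRF-OE was 83.6 ± 52.6 CPM (SD, n = 2) against 61.5 ± 25.4 CPM (SD, n = 3) for the GFP libraries. For both junction genes, the difference of the means was smaller than the SD within either group. Cldn5 was at 0.34 (SE 0.37, adjusted p = 0.67) and Cd34 at 0.42 (SE 0.46, adjusted p = 0.68). The ETS factors Erg and Fli1 were at 0.13 (SE 0.63, adjusted p = 0.93) and 0.54 (SE 0.47, adjusted p = 0.60). Notch1 was at 0.29 (SE 0.42, adjusted p = 0.76), and Aplnr at 0.40 (SE 0.59, adjusted p = 0.76). Fabp4 was at 0.30 (SE 0.62, adjusted p = 0.83) and Ly6a at 0.27 (SE 0.56, adjusted p = 0.84). Npr3 had the smallest adjusted p of the 35, with a log2 fold change of 1.41 (SE 0.67, adjusted p = 0.39). Procr, named after its values were seen, was at 1.81 (SE 1.88, adjusted p = 0.65), and without SRF-OE replicate 3 its value turned to -0.69.

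Without the library labelled GFP1, Npr3 was the 1 endothelial gene of the 35 that was called higher in SRF-OE, against 1.98% of the 13397 genes tested in that fit, and 0 were called lower, against 0.97%. Its log2 fold change there was 2.47 (SE 0.37, adjusted p = 0.047 by edgeR), near that of Srf at 2.87 (SE 0.37, adjusted p = 0.044). Srf was at 1.76 (SE 0.71, adjusted p = 0.36) with all 5 libraries. The library labelled GFP1 was left out because of its Srf level, so the value of Srf without it is no independent check. Npr3 and Procr were, like Srf, higher in that library than in GFP replicates 2 and 3. Leaving it out thus lowers the GFP level and the GFP spread of these genes. Their p-values in this fit carry that choice. Procr, with a log2 fold change of 7.84 (SE 1.41), missed the threshold at an adjusted p of 0.0502 by edgeR. Fabp4 followed at 1.19 (SE 0.34, adjusted p = 0.093 by edgeR). The other genes had values such as 0.84 for Pecam1 (adjusted p = 0.25), 0.80 for Cdh5 (adjusted p = 0.28) and 0.57 for Kdr (adjusted p = 0.40). In the same fit Flt1 was at 0.88 (adjusted p = 0.21), Tek at 0.84 (adjusted p = 0.28), Tie1 at 0.73 (adjusted p = 0.28), Cldn5 at 0.72 (adjusted p = 0.18) and Cd34 at 0.83 (adjusted p = 0.24). Erg was at 0.81 (adjusted p = 0.37), Fli1 at 0.94 (adjusted p = 0.22), Notch1 at 0.55 (adjusted p = 0.43), Aplnr at 0.84 (adjusted p = 0.38) and Ly6a at 0.89 (adjusted p = 0.25). At an unadjusted p under 0.05, 5 of the 35 (14.3%) were higher in SRF-OE, against 14.4% of all genes tested. Over the 33 genes other than Procr and Npr3, SRF-OE replicate 2 lay above the mean of GFP replicates 2 and 3 for all 33, with a median log2 difference of 1.30. SRF-OE replicate 3 lay above that mean for 12 of the 33, with a median of -0.06. Over all 35, with the genes set apart after their values were seen, it lay above for 14, with a median of -0.05. SRF-OE replicate 3, whose median was near that of GFP replicates 2 and 3, had the higher Srf level of the SRF-OE libraries. A relation to the Srf level was not tested. Both SRF-OE libraries were above GFP replicates 2 and 3 for 8 of the 35 genes (22.9%), against 30.9% of all genes tested.

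**Figure D5:**
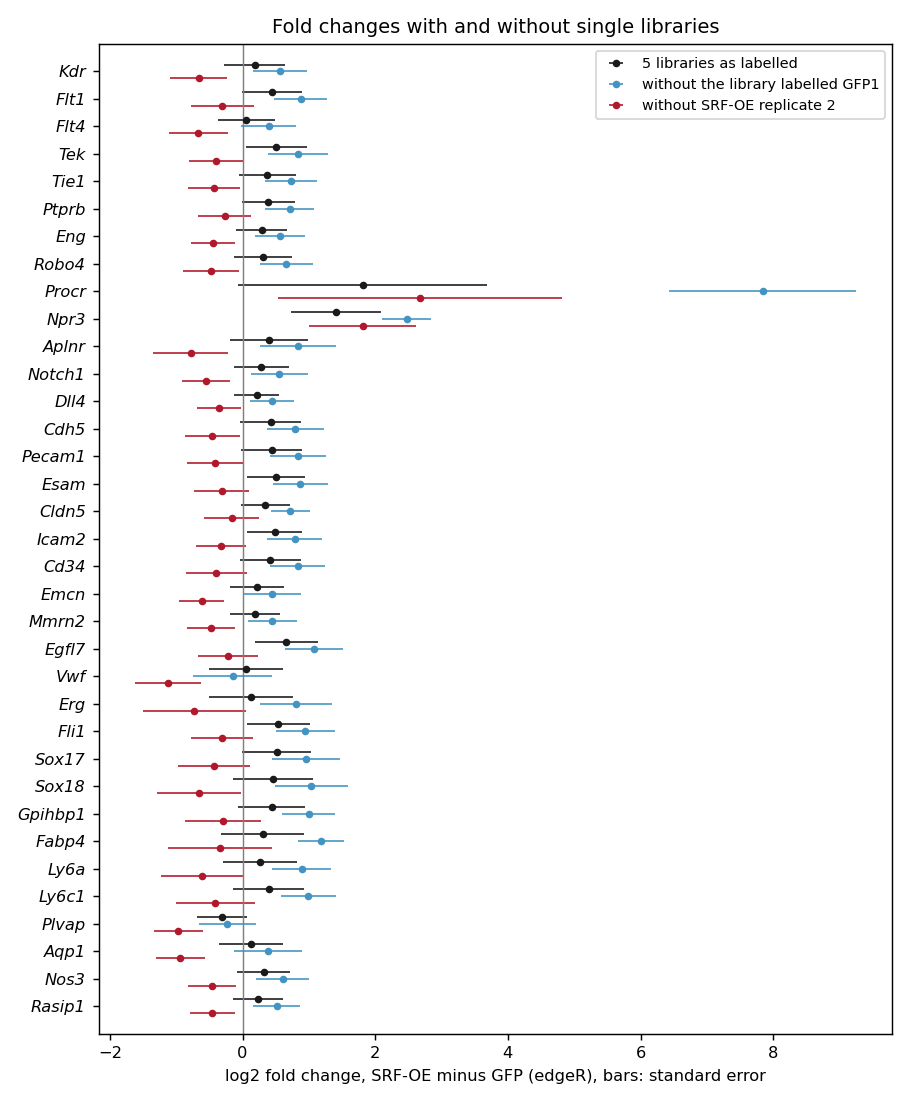
Log2 fold change of SRF-OE against GFP from edgeR for each of the 35 endothelial genes, with all 5 libraries as labelled, without the library labelled GFP1 and without SRF-OE replicate 2. Bars are standard errors. Most genes lie right of 0 in the first fits and left of 0 without SRF-OE replicate 2, while Npr3 and Procr stay on the right in all 3.

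Further endothelial genes outside the 35 were also split between the libraries. Of a list of 28, 27 passed the filter, and for 26 of these SRF-OE replicate 2 exceeded replicate 3, the median of the log2 differences being 1.15, where 50% of all genes tested had more in replicate 2. Cd93, a receptor of angiogenic vessels, was at 89.0 and 35.8 CPM in SRF-OE and at 75.5, 45.6 and 49.4 CPM in GFP, with a log2 fold change of 0.13 between the groups. Ramp2, the endothelial partner of the adrenomedullin receptor, was at 30.8 and 10.9 CPM in SRF-OE and at 22.9, 11.4 and 10.3 CPM in GFP, with a log2 fold change of 0.48. In this list 0 of 27 genes passed the threshold with the 5 libraries as labelled, in either direction, and 0 had an unadjusted p under 0.05 by edgeR. Without the library labelled GFP1, 2 of 27 were called higher and 0 lower, beside 1.98% and 0.97% of all genes tested, with Cd93 at 0.40 (adjusted p = 0.55) and Ramp2 at 0.94 (adjusted p = 0.25). The called genes were Efnb2, the arterial ligand ephrin-B2, at a log2 fold change of 1.04 (adjusted p = 0.0499), and Lims2, an adaptor of integrin signalling, at 1.77 (adjusted p = 0.042), both named after their values were seen. The summed level of the list did not show the split, since Cd36, a fatty acid transporter that CMs also express, made up most of it with 921 to 1644 CPM per library.

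Pericytes wrap capillaries, and their markers moved partly with the endothelial genes. Pdgfrb, the receptor that recruits pericytes to endothelium, was at 60.7 and 30.1 CPM in SRF-OE and at 64.5, 26.4 and 31.3 CPM in GFP. Of the 10 pericyte and smooth muscle markers, 6 had more in SRF-OE replicate 2, near the 50% of all genes tested that did. The median of their log2 differences was 0.45. Against GFP replicate 2, 9 of the 10 had more in the library labelled GFP1, where 50.4% of all genes tested did. Against GFP replicate 3, 7 of the 10 had more in it, where 50.7% of all genes tested did. The median log2 differences were 1.31 and 1.03 for these markers, beside 0.86 and 0.97 for the 35 endothelial genes. Among the fibroblast markers, Col1a1 was at 137 and 65.5 CPM in SRF-OE and at 68.1, 56.2 and 45.9 CPM in GFP. Myh6, the adult myosin heavy chain of CMs, was at 40537 and 44087 CPM in SRF-OE and at 43611, 56916 and 68849 CPM in GFP, so that it was lower in the library labelled GFP1 and in both SRF-OE libraries than in GFP replicates 2 and 3. The log2 fold changes between the groups were 0.15 for Pdgfrb, 0.84 for Col1a1, -0.12 for Ptprc and -0.42 for Myh6, and 0 of these 4 passed the threshold by edgeR, nor did any other marker of these cell types with the 5 libraries as labelled. Without the library labelled GFP1 the values were 0.66 for Pdgfrb (adjusted p = 0.24), 0.99 for Col1a1 (adjusted p = 0.13), -0.30 for Ptprc (adjusted p = 0.66) and -0.57 for Myh6 (adjusted p = 0.31). In that fit 1 of 10 pericyte and smooth muscle markers, 1 of 12 fibroblast markers and 1 of 11 leukocyte markers were called higher. Of all genes tested in that fit, 1.98% were called higher, and such single calls do not describe these cell types. The called markers were Tagln, a smooth muscle protein, at 2.92 (adjusted p = 0.047), Ddr2, a collagen receptor, at 1.88 (adjusted p = 0.042), and Cd74, the invariant chain of antigen presentation, at 2.37 (adjusted p = 0.048). All 3 were named after their values were seen.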

How the data were processed

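Libraries from P14 GFP+ CMs were compared between SRF-OE and GFP. Reads were aligned by the authors against mm10 using STAR 2.5.3a. The authors counted them per gene with featureCounts of Subread 1.5.2 and deposited raw counts, and CASAVA 1.8 is also named in the submitters' processing notes. The deposited table also holds gene lengths in bp, in the column headed as SRF-OE replicate 1, and these were used only for RPKM. Columns were assigned to libraries by name, and 0 columns of per-sample values were left unused. Depth per library was 14137433 to 23159631 counts. The libraries are called biological replicates, but the labels do not tie them to single animals, so p-values measure the spread between these libraries. Libraries of one group differed far beyond sampling noise, with chi-square values of 13.6 to 77.6 per degree of freedom, and none was a copy of another.

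The members and the other gene lists were chosen with earlier results of these data known. All genes were filtered with filterByExpr, scaled with TMM and tested by glmQLFit and glmQLFTest of edgeR 4.0.16 (R 4.3.3), with Benjamini-Hochberg adjustment and a cutoff of 0.05. The fits were planned for up to 6 libraries. A standard error is the absolute log2 fold change over the root of edgeR's F statistic. Differences between single libraries are log2 of CPM after 0.5 was added to each count. Intervals of 95% are exact binomial intervals of a gene's count within the library total, and cover counting error only. Reads carried no molecular identifiers, so PCR copies count as separate reads and the intervals may be too narrow. Further lists held other endothelial genes and transcription factors, vascular ligands, and lymphatic, pericyte and smooth muscle, fibroblast, leukocyte, erythroid and platelet, epicardial, Schwann and neural, and CM markers. Symbols missing from the table were matched through RefSeq synonyms. The rule for named genes gave levels for all 35 members. It gave fold changes for 15 of them covering each role, for any member called in the 5 libraries or without the library labelled GFP1, and for Cd93, Ramp2, Pdgfrb, Col1a1, Ptprc and Myh6. Gene positions are from GENCODE M21 (GRCm38). The strand setting of the counting is not given in the sources used here, so Cd34, Dll4, Egfl7, Eng, Nos3, Notch1, Npr3, Rasip1 and Sox17, whose exons overlap other genes, are uncertain.

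Alternatives were DESeq2 1.42.0 (independent filtering target 0.05), its size factors or upper quartile factors in edgeR, other filters, the replicate number as a block, other scalings of single libraries and leaving out each library. The fits were also run on simulated data with changes of known size, and the outcome is not reported here. Knockout libraries of the study were not analysed here.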

Additional observations from a re-analysis of the deposited data

How the results depend on the processing

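With DESeq2's size factors or upper quartile factors in edgeR, no filter on low counts or at least 10 counts in every library, 0 genes passed in either direction, as in the fit reported, and no fold change of a named gene turned its sign. Procr, Pgf and Cd74 could not be fitted under the last of these. DESeq2 itself called 11 genes higher and 213 lower, but its independent filtering left an adjusted p for only 1079 genes, 1 of them an endothelial gene, which was not called. Leaving out 1 library gave 0 to 265 genes higher and 0 to 130 lower, with 0 to 1 endothelial genes higher, a median log2 fold change of the 35 from -0.43 to 0.81, and Srf from 1.13 to 2.87; the calls came only without the library labelled GFP1. In these fits Kdr ranged from -0.66 to 0.70, Flt1 from -0.31 to 0.93, Tek from -0.40 to 1.05, Tie1 from -0.43 to 0.88, Cdh5 from -0.45 to 0.96, Pecam1 from -0.41 to 0.96, Cldn5 from -0.16 to 0.72, Cd34 from -0.40 to 0.93 and Erg from -0.73 to 0.81. Fli1 ranged from -0.31 to 1.07, Notch1 from -0.55 to 0.81, Aplnr from -0.78 to 1.03, Fabp4 from -0.34 to 1.19, Ly6a from -0.61 to 0.89, Procr from -0.69 to 7.84, Cd93 from -0.67 to 0.64, Ramp2 from -0.45 to 1.03, Pdgfrb from -0.44 to 0.66 and Ptprc from -0.30 to 0.075. Npr3, from 0.82 to 2.47, kept its sign. SRF-OE replicate 1 has no counts and could not be left out, and where 1 SRF-OE library was left out, the remaining one was assumed to vary like the GFP libraries. A replicate block gave 582 genes higher (4.23%) and 432 lower (3.14%), with 3 endothelial genes higher (Procr, Npr3 and Fabp4) and Srf at 2.78. The same block without the library labelled GFP1 gave 547 higher, 392 lower, 3 endothelial genes higher and Srf at 2.78. The groups share only 2 replicate numbers, and the deviations of same-numbered libraries correlated at 0.36 for number 2 and -0.05 for number 3, and 2 pairs do not show that the numbers pair the libraries. Same-numbered libraries did share the sex that Xist and Ddx3y show, with Xist at 147 and 88.8 CPM in the replicates 2 and Ddx3y at 94.8 and 100.3 CPM in the replicates 3. At an unadjusted p under 0.05 by edgeR, the block had 14 of the 35 genes (40%) higher, against 14.9% of all genes tested. The library labelled GFP1 has no partner of its number, so a block fits it exactly. Scaling to the summed CM markers moved the median log2 difference of the 35 to 1.14 between the SRF-OE libraries, to 1.22 and 1.53 for the library labelled GFP1 against GFP replicates 2 and 3, and to 0.34 between GFP replicates 2 and 3, and scaling to the total count moved the last 3 to 0.97, 1.15 and 0.21.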

Other observations

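Most vascular ligands, co-receptors and Notch partners had more in replicate 2 of SRF-OE than in replicate 3, as the receptors did, but their sum followed Vegfa and Vegfb. Of 25 vascular ligands, co-receptors and Notch partners in the table, 21 passed the filter, and their summed level was 949 and 584 CPM in SRF-OE and 837, 983 and 1078 CPM in GFP. Of these 21, 18 were higher in replicate 2 of SRF-OE than in replicate 3, with a median of the log2 differences of 0.65, and 14 and 16 were higher in the library labelled GFP1 than in GFP replicates 2 and 3. With the 5 libraries as labelled, 0 of these 21 passed the threshold in edgeR, and 1 had an unadjusted p under 0.05. The genes named from here on were chosen after their values were seen. Vegfa, which encodes the main ligand of Kdr, was at 260 and 198 CPM in SRF-OE and at 235, 335 and 474 CPM in GFP. Vegfb was at 192 and 124 CPM in SRF-OE and at 191, 236 and 254 CPM in GFP. Both ligands were lower in both SRF-OE libraries and the library labelled GFP1 than in GFP replicates 2 and 3, with log2 fold changes of -0.61 and -0.52 that did not pass the threshold (adjusted p = 0.40 and 0.36). In the 4 libraries other than that labelled GFP1, Pgf, a ligand of Flt1, was called higher with a log2 fold change of 3.17 (adjusted p = 0.047) at 0.321 to 3.80 CPM, and Slit2, a guidance ligand of the Robo family, was called lower, at -1.61 (adjusted p = 0.047).

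Among 6 lymphatic endothelial markers, Ccl21a had 0 reads and Lyve1 was at 0.131 to 1.14 CPM. Prox1, the master factor of lymphatic endothelium that CMs also express, was at 70.9 and 64.9 CPM in SRF-OE and at 68.1, 123 and 113 CPM in GFP. It was called lower in those 4 libraries, with a log2 fold change of -0.79 (adjusted p = 0.047). The library labelled GFP1 was again near the SRF-OE libraries. Of 16 other endothelial transcription factors that passed the filter, 13 had more in SRF-OE replicate 2 than in replicate 3, the median of the log2 differences being 1.09, and 0 were called with the 5 libraries as labelled. Klf4, a factor of vessel quiescence, was the 1 of them called without the library labelled GFP1, at 1.30 (adjusted p = 0.048). In that fit 1.98% of all genes tested were called higher. Klf4 was at 14.9 and 15.4 CPM in SRF-OE and at 10.6, 5.50 and 6.95 CPM in GFP. Schwann and neural markers summed to 3.33 to 5.20 CPM per library.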
